A study of Saccharomyces cerevisiae with 4 samples.

Results

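The yeast thioredoxin system comprises 5 genes, which were selected by gene symbol among the 5449 *Saccharomyces cerevisiae* genes measured. They are *TRX1*, *TRX2* and *TRX3*, encoding thioredoxins, and *TRR1* and *TRR2*, encoding thioredoxin reductases. All 5 were on the array, each with 1 probe set, and all lay far above background. The study compared haploid wild type *S. cerevisiae* with cells deleted for *SOD1*, the gene of cytosolic copper-zinc superoxide dismutase. The labels name both strains as FM391. Each strain was left untreated or given 0.4 mM H2O2 for 20 min, which makes 4 groups. All cultures were in early log phase (OD600 near 0.4) at 30 °C in a synthetic dropout medium (SC-Leu). Each group was measured on 1 array, and the labels name no replicate cultures.

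With no replicate arrays the comparisons have no test and no p-value, and a difference is called only when it reaches 2-fold, which is 1 on the log2 scale. Levels are log2 signals from 1 array each, and every difference is a difference of log2 signals between arrays. Levels were not compared between genes, because probe sets differ in how brightly they hybridize. In bulk RNA a change in every cell and a change in the share of cells cannot be told apart.

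Thioredoxins are small proteins with a pair of cysteines that reduce disulfides in other proteins and become oxidised in doing so. A flavoprotein, thioredoxin reductase, returns them to the reduced form with electrons from NADPH. Yeast has a cytosolic set, Trx1, Trx2 and Trr1, and a separate mitochondrial set, Trx3 and Trr2. Clients of the cytosolic set include peroxiredoxins, methionine sulfoxide reductases, ribonucleotide reductase and the PAPS reductase of sulfate assimilation. The cytosolic genes *TRX2* and *TRR1* are known targets of the transcription factors Yap1 and Skn7, and reduction of Yap1 by thioredoxin ends the Yap1 response.

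The label of the *SOD1* deletion held on these arrays. The *SOD1* level was 14.21 in untreated and 14.31 in treated wild type, against 2.40 and 2.42 in sod1Δ, where the background floor was 2.31. Markers of the a mating type were between 10.34 and 12.74 on all arrays. Of the alpha markers, *MF(ALPHA)1* was under the floor on all 4 arrays, while *MF(ALPHA)2*, *STE3* and *SAG1* were above it, between 6.72 and 8.88.

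The first question was how the genes respond to H2O2 in wild type. The thioredoxin gene *TRX2* and the reductase gene *TRR1*, both cytosolic, were the 2 of 5 genes at least 2-fold higher, and none was 2-fold lower. Across the 5358 genes tested, 17.1% were at least 2-fold higher and 16.1% at least 2-fold lower. The median of the 5 differences was 0.92, and the median of all genes was -0.033. *TRX2* stood at 12.71 untreated and 14.05 after H2O2, a difference of 1.34 or 2.53-fold. *TRR1*, whose product is the only cytosolic thioredoxin reductase, stood at 12.82 and 14.31, a difference of 1.498 or 2.83-fold. Larger differences were common on the array: 12% of all genes lay above *TRX2* and 10.1% above *TRR1*. Among the 565 genes with a mean level of at least 12, 7.08% were 2-fold higher, and 22 and 17 genes lay above *TRX2* and *TRR1*. Both genes reached the top of the signal range after treatment, where 22 genes lay above a level of 14 and the brightest was at 14.77. Whether the scale is compressed there was not tested.

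The other thioredoxin of the cytosol went the opposite way in the deposited values. *TRX1* stood at 12.60 untreated and 12.17 after H2O2 in wild type, a difference of -0.43, which is 1.35-fold lower and short of the threshold. Its sign turned to 0.73 and 0.28 when the arrays were centred on hybridization controls, a scaling that raised the median of all genes by 1.17 and 0.72. A shift equal for a whole array cancels in the contrast between the paralogues, which lie on the same arrays. The shift of the controls varied with brightness, with wild type medians of -0.44 at levels from 12 to 14 and -0.10 at 14 or more. Such a shift need not cancel, and its part in the contrast was not tested. The response of *TRX2* exceeded that of *TRX1* by 1.77 (wild type) and 1.55 (sod1Δ).

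The mitochondrial genes had smaller positive differences. *TRR2*, the mitochondrial reductase gene, stood at 10.12 untreated and 11.04 after H2O2 in wild type, a difference of 0.92 or 1.89-fold, just under the threshold. *TRX3*, the mitochondrial thioredoxin gene, stood at 10.89 and 11.23, a difference of 0.34 or 1.27-fold. Of all genes, 18.3% lay above *TRR2* and 33.6% above *TRX3*. In both compartments the reductase gene had the largest difference, and the order in wild type was *TRR1*, *TRX2*, *TRR2*, *TRX3* and *TRX1*. No replicate spread exists to say which neighbours in that order differ. As a guide to probe error, 23 bright genes (mean level of at least 10) with 2 probe sets each had a within-gene SD of 0.43 for this response, and the gap of 0.16 between *TRR1* and *TRX2* is smaller than that.

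**Figure D1:**
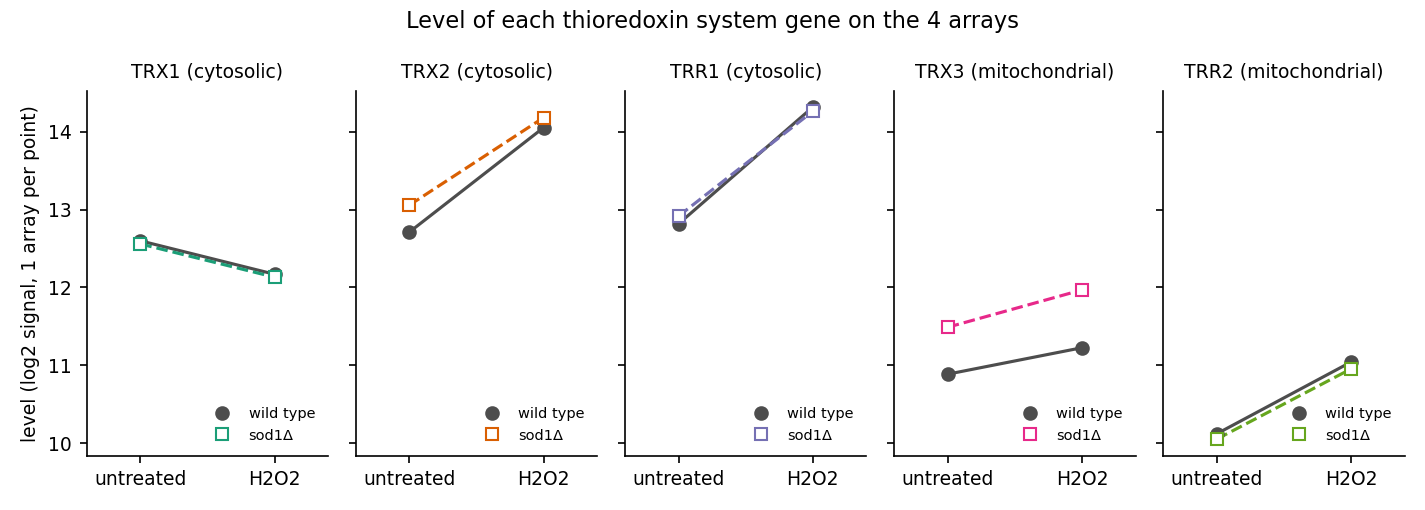
Level (log2 signal) of each gene without and with H2O2, 1 array per point, with filled circles and solid lines for wild type and open squares and dashed lines for sod1Δ. *TRX2* and *TRR1* go up to between 14.05 and 14.31 after H2O2 in both strains, *TRX1* goes down by 0.43 in both (upward in wild type with control centring), and *TRX3* alone has its sod1Δ line clearly apart from the wild type line; levels are not to be compared between panels.

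The second question was whether the response holds without *SOD1*. In sod1Δ the same genes, *TRX2* and *TRR1*, were the 2 of 5 at least 2-fold higher, against 14.6% of the 5341 genes tested, and none was 2-fold lower, against 15.8%. The median of the 5 differences was 0.90, and that of all genes -0.032. *TRX2* stood at 13.06 untreated and 14.18 after H2O2, a difference of 1.12 or 2.18-fold. *TRR1* stood at 12.92 and 14.26, a difference of 1.34 or 2.54-fold. Among the 565 genes with a mean level of at least 12, 15 and 8 lay above *TRX2* and *TRR1* in this strain, and 3.89% were 2-fold higher.

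The remaining genes kept the wild type order in sod1Δ. *TRR2* stood at 10.05 untreated and 10.95 after H2O2, a difference of 0.90 or 1.87-fold. *TRX3* stood at 11.49 and 11.97, a difference of 0.48 or 1.39-fold. *TRX1* stood at 12.56 and 12.13, a difference of -0.43 or 1.34-fold lower. The sod1Δ pair shares no array with the wild type pair, and in the deposited values all 5 signs and the order of the 5 responses came out alike in both. Each gene is read by the same probe set in both pairs, so probe error can repeat. For the 23 bright genes with 2 probe sets the within-gene SD was 0.43 and 0.42 for the responses and 0.16 for their difference. The part of probe error in the repeated order was not tested. The sign of *TRX1* did not with either control centring, which put it at 0.73 and 0.28 in wild type. In sod1Δ no scaling tried turned the sign of any of the 5, and *TRX1* ranged from -0.54 to -0.35.

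The design text of the study asks for induced genes that lose more than 50% of their induction without *SOD1*. None of the 5 did in the deposited values. Of the 915 genes at least 2-fold higher in wild type, 10.9% lost that much, and 7.54% of the 782 higher in sod1Δ did so with the strains exchanged. The fold of *TRX2* in sod1Δ was 86.0% of that in wild type, and the fold of *TRR1* was 89.9%. For genes under 2-fold, the ratio of treated to untreated in sod1Δ was 98.6% of that in wild type for *TRR2*, 100.2% for *TRX1* and 110.2% for *TRX3*. On the log2 scale the difference of responses, sod1Δ minus wild type, was -0.22 for *TRX2*, -0.15 for *TRR1*, -0.020 for *TRR2*, 0.0026 for *TRX1* and 0.14 for *TRX3*. All lay within the 25th to 75th percentile of the 5365 genes tested, -0.29 to 0.22, in which 2.67% of genes were at least 1 above and 4.03% at least 1 below. This call rests on the scaling. With the arrays centred on the level of the hybridization controls, all 5 differences of responses were past -1. They ran from -1.45 for *TRX2* to -1.09 for *TRX3*. The median of all genes moved by -1.23, to -1.25, itself past -1. With the median deviation of the controls, 1 of the 5 was past -1, *TRX2* at -1.03. Each centring is 1 shift for all levels, whereas the controls' own difference of responses fell with brightness. Its medians were 1.22 at levels from 10 to 12, 0.54 from 12 to 14 and 0.29 at 14 or more. No setting followed that fall, and its part in the call was not tested. The smaller fold of *TRX2* went with an untreated level 0.35 higher in sod1Δ and a treated level 0.13 higher.

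**Figure D2:**
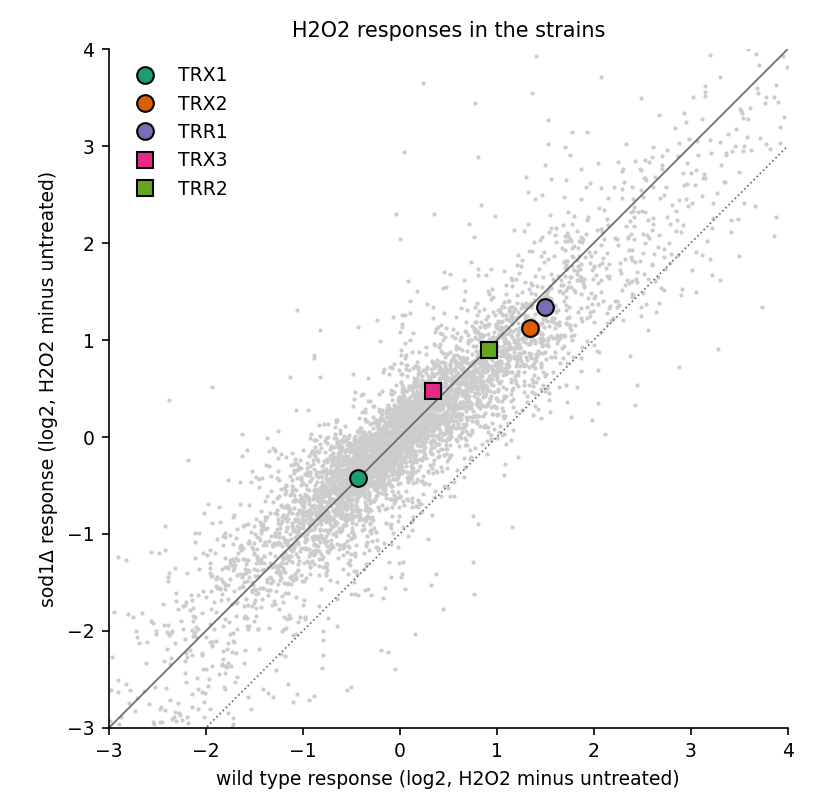
H2O2 response (log2, H2O2 minus untreated) in wild type on the x axis and in sod1Δ on the y axis, with grey points for all genes, circles for cytosolic and squares for mitochondrial members, a solid line for equal responses and a dotted line where sod1Δ keeps 50% of the wild type fold. All 5 genes lie near the solid line and none below the dotted one in the deposited values. Centring on the level of the controls, 1 shift for all levels of brightness, moves all 5 past the dotted line, and the median of all genes too. Centring on their median deviation moves *TRX2* past it. Outside the plotted window of -3 to 4 lie 288 of 5334 genes.

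The third question was how the untreated strains differ. None of the 5 genes reached 2-fold in either direction, where 3.71% of 5344 genes were higher and 3.18% lower in sod1Δ. The largest difference was that of *TRX3*, at 10.89 in wild type and 11.49 in sod1Δ, which is 0.60 or 1.52-fold. Of all genes 8.16% lay above it. *TRX2* followed with 12.71 and 13.06, a difference of 0.35 or 1.27-fold, above which 16% of genes lay. *TRR1* differed by 0.100, and *TRX1* by -0.040 and *TRR2* by -0.068, both of which turned positive (0.68 and 0.65) with control centring. That setting put *TRX2* and *TRX3* past 2-fold, at 1.07 and 1.32. The median of the 5 was 0.100 and that of all genes -0.071.

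After H2O2 *TRX3* again had the strain difference of largest size on the deposited scale, an order by size that both control centrings overturned. With sign counted, *TRX3* stayed the highest of the 5 under both. None of the 5 reached 2-fold, where 3.07% of 5341 genes were higher and 6.33% lower in sod1Δ. That split of 164 higher and 338 lower became 230 and 215 after quantile normalization. *TRX3* stood at 11.23 in treated wild type and 11.97 in treated sod1Δ, a difference of 0.74 or 1.67-fold, and 5.62% of genes lay above it. With control centring it was 0.23, smaller in size than -0.60 for *TRR2*, -0.57 for *TRR1* and -0.55 for *TRX1*. With the median deviation of the controls it was 0.40, against -0.43 for *TRR2* and -0.40 for *TRR1*. The other deposited differences were 0.13 for *TRX2* (-0.38 with control centring), -0.038 for *TRX1*, -0.054 for *TRR1* and -0.088 for *TRR2*.

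On the deposited scale *TRX3* was the 1 gene of the system at least 1.5-fold higher in sod1Δ both untreated and treated. These comparisons share no array but read the same probe set. Both control centrings ended the treated call, with *TRX3* at 0.23 and 0.40. The planned one put all 5 genes past 1.5-fold untreated, from 0.65 for *TRR2* to 1.32 for *TRX3*. At that threshold 8.61% of genes were higher untreated and 9.02% treated. A total of 220 of 5320 genes, or 4.14%, did the same, and 3.38% of the 1984 genes with a mean level of at least 10. The *TRX3* levels of sod1Δ, 11.49 and 11.97, lay above both wild type levels, 10.89 and 11.23, on the deposited scale. With the planned control centring untreated sod1Δ, 1.32 above untreated wild type, lay below treated wild type, which was 1.495 above it. For the 23 bright genes with 2 probe sets the within-gene SD was 0.16 for the untreated and 0.18 for the treated strain difference, a measure of probe error that leaves out the spread between cultures. Its mitochondrial partner *TRR2* did not show the difference, with wild type at 10.12 and 11.04 and sod1Δ at 10.05 and 10.95.

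**Figure D3:**
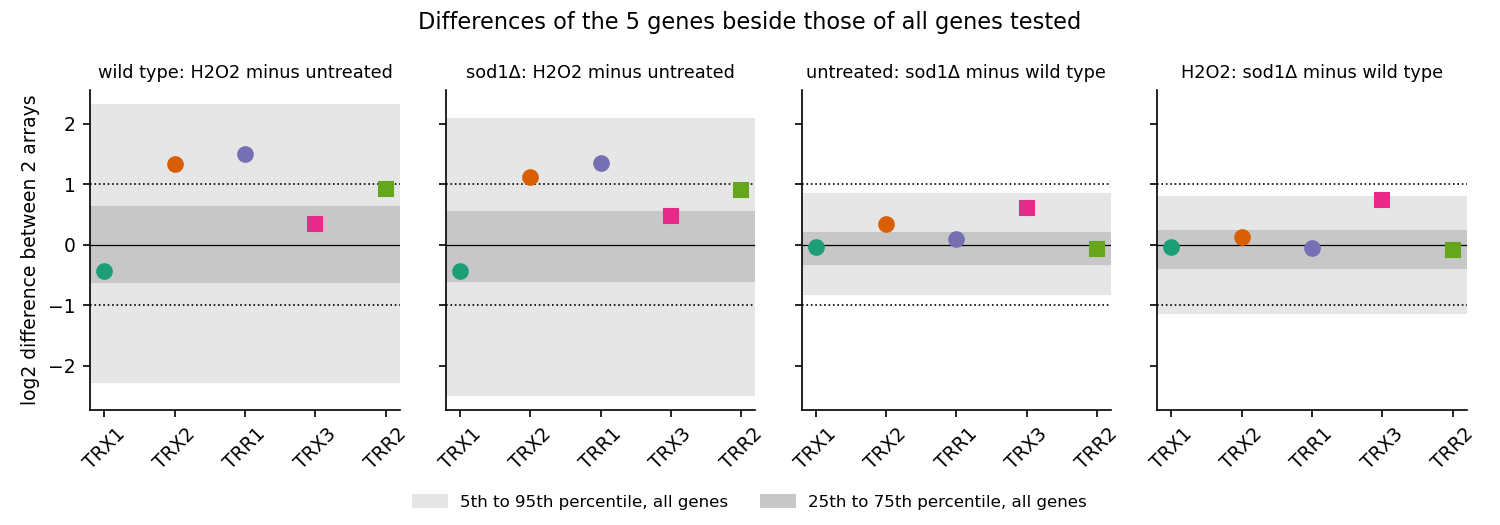
Log2 difference of each gene in the 4 comparisons, with circles for cytosolic and squares for mitochondrial members, dotted lines at 2-fold, and bands for the 25th to 75th and 5th to 95th percentile of all genes tested. *TRX2* and *TRR1* lie past 2-fold in both H2O2 responses, and *TRX3* is the highest member in both strain comparisons, at 0.60 and 0.74 in the deposited values. After H2O2 *TRX3* stays the highest with control centring, at 0.23, but is then the smallest in size.

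Set against each other, the compartments did not separate. The mean H2O2 response was 0.80 for the cytosolic genes *TRX1*, *TRX2* and *TRR1* and 0.63 for the mitochondrial genes *TRX3* and *TRR2* in wild type, and 0.68 and 0.69 in sod1Δ. The cytosolic mean minus the mitochondrial mean was 0.17 in wild type and -0.0096 in sod1Δ, where it reached 0.030 under other scalings. That value rested on each cytosolic gene. Without *TRX1* it was 0.79 in wild type and 0.54 in sod1Δ, without *TRX2* it was -0.096 and -0.23, and without *TRR1* it was -0.17 and -0.34. Between the reductases, the response of *TRR1* exceeded that of *TRR2* by 0.58 (wild type) and 0.44 (sod1Δ). The within-gene SD per probe set was 0.43 and 0.42 for these responses. Between the thioredoxins, *TRX2* exceeded *TRX3* by 1.00 and 0.64. *TRX1* lay below *TRX3* by -0.77 and -0.91. The mean strain difference was 0.27 for the mitochondrial and 0.13 for the cytosolic genes untreated, and 0.33 against 0.012 treated. Of the mitochondrial pair only *TRX3* was above 0 in the deposited values.

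The hybridization controls, bacterial and phage transcripts added at fixed amounts before hybridization, moved between these arrays. Over 27 control probe sets the treated wild type array was lower than the untreated one by a median of -0.72, ranging from -2.10 to 0.012. The 10 probe sets with a mean level under 10, most of them near the background floor, had a median of -1.16 and include the lowest value. From a level of 10 up the shift shrank with brightness. Its median was -1.16 for 5 probe sets at a mean level from 10 to 12, -0.44 for 6 from 12 to 14 and -0.10 for 6 at 14 or more. In sod1Δ the controls differed by a median of 0.11 with H2O2. The wild type difference of *TRX1*, -0.43, lay inside the range of the controls of its brightness, -0.72 to -0.26, while in sod1Δ those controls were at 0.094 to 0.20 and *TRX1* at -0.43. For the untreated strains the controls from 10 to 12 had a median of -0.73 where *TRX3* had 0.60, and for the treated strains they ranged from 0.26 to 0.58 where *TRX3* had 0.74. The part of these shifts in the results was not tested. With the median deviation of the controls set to 0, as an alternative chosen after seeing the data, 4 of 5 genes were past 2-fold in wild type, *TRX1* being the exception at 0.28. The split over all genes was then 1883 higher and 433 lower in place of 915 and 862.

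**Figure D4:**
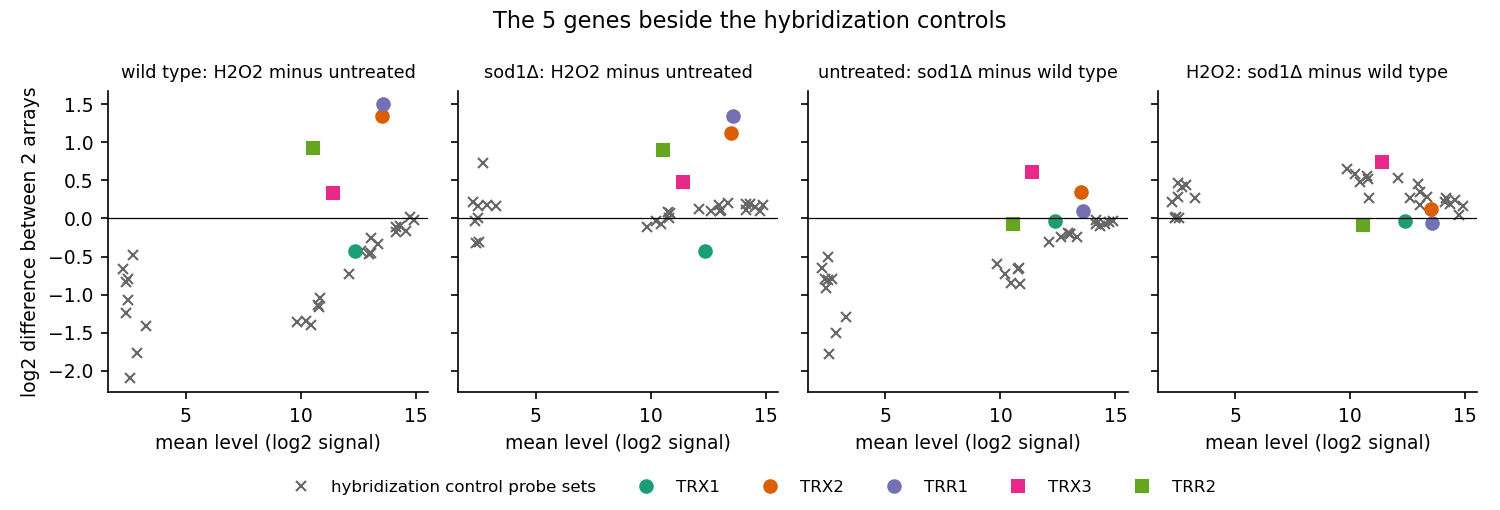
Log2 difference against mean level (log2 signal over the 4 arrays) in the 4 comparisons, with crosses for the 27 hybridization control probe sets, circles for cytosolic and squares for mitochondrial members. In the first panel the controls lie below 0 at all but the highest levels while *TRX2*, *TRR1*, *TRR2* and *TRX3* lie above 0, and in the last panel *TRX3* at 0.74 is above every control.

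The lists of partner genes below are on the deposited scale, so that control centring would shift every wild type response in them by the same amount. Their counts stand beside all-gene shares of 17.1% higher and 16.1% lower in wild type, and 14.6% and 15.8% in sod1Δ. The clients of the system closest to peroxide are the peroxiredoxins, thiol peroxidases that thioredoxin reduces. Of the 6 genes for peroxiredoxins and sulfiredoxin, 3 were at least 2-fold higher with H2O2 and 0 lower in each strain, with medians of 1.64 in wild type and 1.14 in sod1Δ. *SRX1*, whose product, sulfiredoxin, restores hyperoxidised peroxiredoxins, stood at 12.81 and 12.70 after H2O2. Untreated it was at 2.42 and 2.66, near the 2.40 and 2.42 of the deleted *SOD1*, so that its differences of 10.39 and 10.05 are lower bounds. *TSA2*, a cytosolic peroxiredoxin gene, differed by 8.58 and 5.80, from untreated levels of 3.97 in wild type, which is dim, and 7.38 in sod1Δ. *PRX1*, encoding the mitochondrial peroxiredoxin, stood at 10.60 and 13.32 in wild type and at 11.99 and 13.85 in sod1Δ. Its untreated strain difference was 1.397, where that of *TRX3* was 0.60. The main cytosolic peroxiredoxin gene *TSA1* went from 13.93 to 14.47 in wild type, a difference of 0.55, and *AHP1* from 13.67 to 13.84. *DOT5*, a nuclear peroxiredoxin gene, differed by 0.030 in wild type and -0.20 in sod1Δ.

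Other genes of thioredoxin-linked reductases and peroxidases were mixed. Of 10 genes, 4 were at least 2-fold higher with H2O2 in each strain, 0 were lower in wild type and 1 in sod1Δ, with medians of 0.11 and -0.019. The glutathione peroxidase-like genes *GPX1* and *GPX2*, whose products accept electrons from thioredoxin or glutathione, differed by 3.77 and 3.68 in wild type and by 3.02 and 4.68 in sod1Δ. *RNR3*, a damage-induced large subunit gene of ribonucleotide reductase, differed by 3.74 and 1.34, and its constitutive counterpart *RNR1* by -0.48 and -1.38. Untreated, *RNR3* was dim, at 3.37 in wild type and 4.46 in sod1Δ. *MET16*, the PAPS reductase gene, differed by 1.29 and 1.04 with H2O2 and by -1.07 and -1.32 between the strains, untreated and treated. The methionine sulfoxide reductase genes *MXR1* and *MXR2* stayed under 2-fold, at -0.60 and 0.023 in wild type and -0.099 and -0.057 in sod1Δ.

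The glutathione and glutaredoxin branch works in parallel with thioredoxin. Of its 11 genes, 4 were at least 2-fold higher in wild type and 0 lower, and 3 were higher and 1 lower in sod1Δ, with medians of 0.39 and 0.66. *GSH1*, encoding the first enzyme of glutathione synthesis, differed by 2.96 and 2.83. The glutathione reductase gene *GLR1*, whose product serves cytosol and mitochondria, stood at 11.55 and 12.67 in wild type and at 11.85 and 12.76 in sod1Δ, differences of 1.12 and 0.91. *GRX2*, a dithiol glutaredoxin gene, differed by 1.76 and 1.65, while its paralogue *GRX1* differed by 0.39 and 0.66. Both pairs of paralogues, *GRX2* with *GRX1* and *TRX2* with *TRX1*, had 1 gene past 2-fold and 1 not.

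Both reductases of the thioredoxin system draw on NADPH. Of 12 genes of NADPH supply, 3 were at least 2-fold higher with H2O2 in wild type, against 17.1% of all genes, and 4 in sod1Δ, against 14.6%. None was lower, and the medians were 0.23 and 0.70. *ZWF1*, encoding glucose-6-phosphate dehydrogenase, stood at 12.46 and 13.53 in wild type and at 12.63 and 13.58 in sod1Δ, differences of 1.07 and 0.94. The 6-phosphogluconate dehydrogenase genes split, with *GND2* at 3.15 and 2.68 and the major form *GND1* at -0.42 and -0.28. *SOL4*, a 6-phosphogluconolactonase gene, differed by 7.40 (wild type) and 3.24 (sod1Δ), its paralogue *SOL3* by -0.44 and -0.29. Untreated, *SOL4* was dim in wild type, at 4.11, and at 8.92 in sod1Δ. The mitochondrial NADH kinase gene *POS5* differed by 0.96 and 1.44.

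Genes of mitochondrial peroxide and superoxide defence gave a frame for *TRX3* and *TRR2*. Of 8 genes, 4 were at least 2-fold higher with H2O2 in each strain and 0 lower, with medians of 1.04 in wild type and 1.18 in sod1Δ. The list shares *PRX1*, *GRX5*, *GLR1*, *MXR2*, *POS5* and *IDP1* with the lists above. *SOD2*, encoding the manganese superoxide dismutase of the matrix, differed by 1.73 and 1.81, and *CCP1*, encoding cytochrome c peroxidase, by 2.48 and 3.498. Between the untreated strains *SOD2* differed by 0.071 and *CCP1* by -0.97. Of the 8 genes 1, *PRX1*, was past 2-fold and higher in sod1Δ, where 3.71% of all genes were higher and 3.18% lower.

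**Figure D5:**
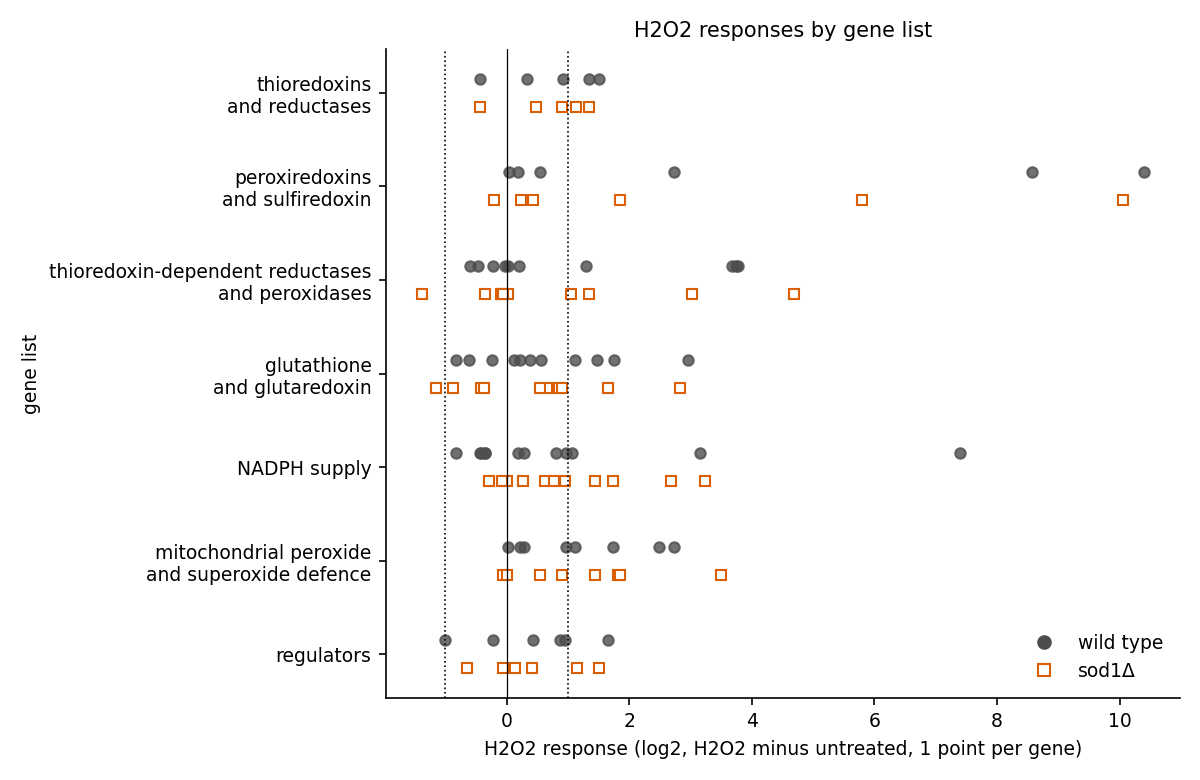
H2O2 response (log2, H2O2 minus untreated) of each gene by list, with filled circles for wild type, open squares for sod1Δ and dotted lines at 2-fold; some genes are in 2 lists. The thioredoxin system spans -0.43 to 1.498 in wild type. The highest point of the peroxiredoxin list, *SRX1*, is plotted at 10.39 and 10.05, which are lower bounds because its untreated level is near background.

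Among the regulators, 1 of 6 genes was at least 2-fold higher with H2O2 in wild type, against 17.1% of all genes, and 2 in sod1Δ, against 14.6%, and none was lower. *YAP1* differed by 1.66 and 1.51, close to the values of *TRR1*. *SKN7* differed by -0.999 in wild type, at the edge of the threshold, and by -0.65 in sod1Δ. *YBP1*, encoding a Yap1-binding protein, differed by 0.43 and 1.15, and *HYR1*, the gene of the peroxidase that senses peroxide for Yap1, by -0.23 and -0.060. The general stress factor genes *MSN2* and *MSN4* differed by 0.95 and 0.88 in wild type and by 0.14 and 0.42 in sod1Δ. None of the 6 regulators was past 2-fold between the strains. Of all genes, 3.71% were higher and 3.18% lower in untreated sod1Δ, and 3.07% and 6.33% in treated sod1Δ.

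The genes most like a member over the 4 arrays were found by the Euclidean distance of levels centred on each gene's own mean, among 5271 genes above the floor on every array. For *TRX2* they were *MAG1*, a DNA glycosylase gene, *RGC1*, *ISU1*, the iron-sulfur scaffold gene, *RRT6* and *LYS20*, a homocitrate synthase gene, at distances from 0.077 to 0.099. For *TRR1* they were *AFG1*, *FOX2*, a gene of peroxisomal fatty acid oxidation, *AZF1*, *YLR001C* and *IML2*, at 0.056 to 0.092. For *TRX3* they were *RSE1*, a splicing factor gene, *IRA2*, encoding a Ras GTPase-activating protein, *SNF3*, encoding a glucose sensor, *KHA1* and *ECL1*, at 0.020 to 0.11. With 4 points per gene such likeness is common, and 55, 54 and 41 genes lay within 0.25 of *TRX2*, *TRR1* and *TRX3*. *TRX1* and *TRR2* spanned less than 1 over the arrays and were not searched, though 414 and 109 genes lay within 0.25 of them.

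In the RefSeq gene order of assembly R64 none of the 10 neighbours overlaps a member, and of the 9 measured, 1 was at least 2-fold higher and 2 were lower in wild type, where 17.1% and 16.1% of all genes were. *TRX2* lies between *SER2*, which ends toward it, and *YGR210C*, which were lower with H2O2 by -2.14 and -1.47 in wild type. *TRR1* lies between *YPQ2* and *TRP4*, at -0.17 and 0.11, and *TRX3* between *AHC2* and *TUP1*, at -0.32 and -0.75. *TRR2* lies downstream of *YPT35* on the same strand, and *YPT35* was higher by 1.86 in wild type and 1.63 in sod1Δ, while *CDC12* on its other side was at -0.89 and -1.06. For *TRX1*, *PDC1* was at -0.25 and -0.20, and *NFG1* has no named probe set here. Beside the strain differences of *TRX3*, those of *AHC2* were 0.078 untreated and 0.27 treated, and those of *TUP1* -0.22 and 0.0090.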

How the data were processed

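RNA (50 ng per sample) was amplified, labelled with biotin and hybridized to Affymetrix yeast arrays, per the labels' protocols. The deposited log2 values per probe set came from GCRMA, per the submitters' processing notes, with version and settings not given in the sources used here. Of 10928 probe sets, 5498 named 1 *S. cerevisiae* gene and were averaged per gene. The 1746 annotated to *Schizosaccharomyces pombe*, absent from the samples, set the background floor of 2.31 (their 95th percentile), and a gene was tested where its brighter array exceeded it. *S. cerevisiae* array medians lay between 9.25 and 9.30. Arrays give no counting depth, and their number limits the precision. The members, lists and alternatives were chosen with earlier results of these data known. Named genes were the 5 members, all regulators, up to 4 genes of largest difference per list and comparison, and 5 nearest patterns for members spanning at least 1. *GND1*, *SOL3* and the chromosomal neighbours, taken by position, were named after values were seen. A promoter motif search was not run, since no sequence was used here. Alternatives were quantile normalization, centring, 32 added to the linear signal, the brightest probe set, no floor and a 1.5-fold threshold. Steps were tested on simulated data with Python 3.11.15, numpy 2.4.6 and pandas 2.3.3.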

Additional observations from a re-analysis of the deposited data

Results flagged for a closer look

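Among the members and the named genes of the lists, 5 list genes had responses to H2O2 of opposite sign in the 2 strains in the deposited values. The difference between the strains was not tested, and all 10 values are under 2-fold. The share of all genes with opposite signs was not counted, so 5 cannot be called many or few. Control centring raised the wild type median of all genes by 1.17, more than the size of any of the wild type values below. *IDP3*, a peroxisomal isocitrate dehydrogenase gene that is dim on all arrays, had -0.83 (wild type) and 0.62 (sod1Δ). *ALD6*, a cytosolic aldehyde dehydrogenase gene, was at -0.36 and 0.26, and the glutaredoxin gene *GRX6* at 0.12 and -0.42. *DOT5* was at 0.030 and -0.20, and *MXR2* at 0.023 and -0.057. In the deposited values none of the 5 thioredoxin system genes was among them. With control centring *TRX1* differed in sign, at 0.73 in wild type and -0.50 in sod1Δ. With the median deviation of the controls it was at 0.28 and -0.54.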

How the results depend on the processing

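The cytosolic minus mitochondrial values moved by less than the probe set SD in all 30 recomputations. The centrings and the brightest probe set could not move them, because a whole-array shift cancels and each member has 1 probe set. No setting followed the shift of the controls with brightness, so its part in these values was not tested. In sod1Δ 2 of 5 members were past 2-fold under every scaling. Only the 2 centrings on hybridization controls moved a member's difference past the probe set SD or across 2-fold. The planned one gave 4 members past 2-fold in wild type, 2 between the untreated strains and 5 (against 0) for the difference of responses. The added centring on their median deviation gave 4, 1 and 1. For the difference of responses the median of all genes was then -1.25 (planned) and -0.83 (added). The planned setting thus put the median gene itself past 2-fold. The share of all genes past 2-fold in that comparison was not counted. A 1.5-fold threshold gave 3 members in each strain's H2O2 response (against 2). The share of all genes past 1.5-fold in these responses was not counted. Their 75th percentile over all genes was 0.62 in wild type and 0.54 in sod1Δ. In each strain comparison that threshold gave 1 member, *TRX3* (against 0), where 8.61% (untreated) and 9.02% (treated) of all genes were 1.5-fold higher. Control centring shifted the median of all genes by 1.17, -0.072, 0.72 and -0.50 in the wild type response, the sod1Δ response, and the untreated and treated strain comparisons. Relative to that median *TRX1* was at -0.41 in wild type (main -0.40), *TRX3* at 0.67 and 0.78 between the strains (main 0.67 and 0.80). Subtracting the median undoes such a shift, so these values had to stay close to the main ones and are no check of them. The calls that changed follow from that shift, by the construction of the setting. Genes higher and lower were 3039 and 290 in wild type (main 915 and 862), 1037 and 27 untreated (main 198 and 170) and 70 and 1004 treated (main 164 and 338), and with the median deviation 1883 and 433, 539 and 48, and 87 and 708. Lower genes numbered 71 untreated and 155 treated with 32 added, and 215 treated after quantile normalization; the cause was not tested. No paired analysis was possible because each group has 1 array.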
